A study of Mus musculus with 7 samples.

Results

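The mitochondrial genome of the mouse and 4 nuclear pseudogenes copied from it were followed through 7 RNA-seq libraries. Members were the 37 symbols beginning with mt- and the pseudogenes Gm28661, Gm28437, Gm10925 and Gm28438, 41 of 56422 gene symbols in all. The mt- genes were chosen by name, namely 13 mRNAs, 2 rRNAs and 22 tRNAs. The 4 pseudogenes were chosen by their high levels in these same libraries, so their levels are given as a description, without a test.

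The samples are labelled as CD8+ T cells taken from the ascites of mice modelling peritoneal metastasis. In 4 libraries the treatment is given as none (controls 1 to 4), and in 3 as propionate and butyrate, both short-chain fatty acids. The labels used here give no strain, age, sex, tumour line, dose or duration, and do not say whether the libraries came from separate animals, so p-values measure only the spread between these libraries. Treated libraries 1 and 2 carry their sample's number. The last treated column carries a number that no treated sample has, and is called the third treated library throughout.

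Mammalian mitochondria keep a small circular genome whose mRNAs all encode subunits of the oxidative phosphorylation machinery: complexes I, III and IV of the respiratory chain, and complex V, the ATP synthase. Long precursor RNAs are transcribed from both strands and cut apart, largely at the tRNAs between genes, so most of these mRNAs start from shared precursors. mt-Nd6 is the one mRNA gene on the light strand. Pieces of mitochondrial DNA have also entered nuclear chromosomes over evolution, and reads from such a nuclear copy and from the mitochondrial gene are hard to separate when the sequences match.

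The 4 copies lie side by side in the GENCODE M21 annotation of the GRCm38 build, in a segment of 4663 bases on the minus strand of chromosome 1 that holds 7 annotated pseudogenes. The table itself was made on mm39 per the submitters' processing notes, so these coordinates describe the reference and not the authors' alignment. Gm28661 equalled mt-Co2 at 681 of 681 bases, Gm10925 equalled mt-Atp6 at 678 of 678 and Gm28437 equalled mt-Co3 at 783 of 783. Gm28438 equalled mt-Nd3 at 344 of 345 bases, and the difference was T3C, counted from the 5′ end of mt-Nd3, with the gene's base first. The starts of mt-Nd3 (chrM:9459-9518, plus strand) and Gm28438 (chr1:24613060-24613119, minus strand) are shown because they hold that difference, in capitals:
mt-Nd3: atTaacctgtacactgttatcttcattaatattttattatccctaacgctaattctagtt
Gm28438: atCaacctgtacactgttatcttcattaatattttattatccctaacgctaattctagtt

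In each of these pairs, that of mt-Nd3 included, the annotated copy stops short of the gene's end. The ends of mt-Co2 (chrM:7637-7696) and mt-Atp6 (chrM:8548-8607) on the plus strand, and of Gm28661 (chr1:24614885-24614941) and Gm10925 (chr1:24613974-24614030) on the minus strand, are shown with the bases past the copy in capitals:
mt-Co2: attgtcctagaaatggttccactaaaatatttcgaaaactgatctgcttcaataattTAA
Gm28661: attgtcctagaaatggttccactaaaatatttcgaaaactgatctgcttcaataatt
mt-Atp6: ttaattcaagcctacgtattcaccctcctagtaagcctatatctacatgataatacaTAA
Gm10925: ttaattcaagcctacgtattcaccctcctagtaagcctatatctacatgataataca

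Within the pairs of mt-Co2, mt-Atp6 and mt-Co3 no base distinguishes the copy from the gene over the copy's annotated length. The division of reads between copy and gene is therefore uncertain. Some mitochondrial genes also overlap each other. mt-Atp8 and mt-Atp6 are carried on the same mRNA and overlap by 43 bases, shown in capitals in the whole of mt-Atp8 (chrM:7766-7969, plus strand) and in the start of mt-Atp6 (chrM:7927-8046, plus strand):
mt-Atp8: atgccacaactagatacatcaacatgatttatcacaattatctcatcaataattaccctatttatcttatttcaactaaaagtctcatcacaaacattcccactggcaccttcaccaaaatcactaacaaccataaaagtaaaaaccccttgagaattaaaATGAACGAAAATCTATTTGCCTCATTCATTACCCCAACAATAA
mt-Atp6: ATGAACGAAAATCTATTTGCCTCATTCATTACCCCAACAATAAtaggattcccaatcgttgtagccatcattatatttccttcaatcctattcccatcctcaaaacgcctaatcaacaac

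mt-Nd4l and mt-Nd4 likewise share an mRNA and overlap by 7 bases, and mt-Nd5 and mt-Nd6 overlap by 14 bases on opposite strands.

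Levels are TPM, a unit of transcript abundance in which reads are divided by transcript length and every library is scaled to the same total. TPM keeps no sequencing depth, so depth is unknown, and no counting interval or detection limit is given. A gene family that takes more of a library lowers the values of every other gene in it. Of the 41 members, 19 were above 0 in some library, and the same 19 passed the filter of TPM of at least 1 in at least 3 libraries. The 22 tRNAs were listed at 0 in all 7 libraries, which had been made by poly(A) selection and size selection of fragments.

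Members held between 21.7% and 51.2% of all TPM. The share was 28.8%, 23.9%, 21.7% and 28.5% in controls 1 to 4, 26.6% and 24.1% in treated libraries 1 and 2, and 51.2% in the third treated library. Treated libraries 1 and 2 therefore lay inside the control range, and the third treated library stood apart, at 1.99 times the control mean. Other genes kept 48.8% of TPM there and 71.2% to 78.3% in the other 6 libraries. Mitochondrially encoded genes alone held 16.2% ± 2.30 (SD, n = 4) in controls and 21.9% ± 9.53 (SD, n = 3) in treated libraries, and the treated SD was larger than the difference between the means. Without the third treated library the ratio of treated to control means for these genes fell to 1.01. The 4 copies held 9.55% ± 1.20 (SD, n = 4) in controls and 12.1% ± 5.48 (SD, n = 3) in treated libraries, again highest in the third, at 18.4%.

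**Figure D1:**
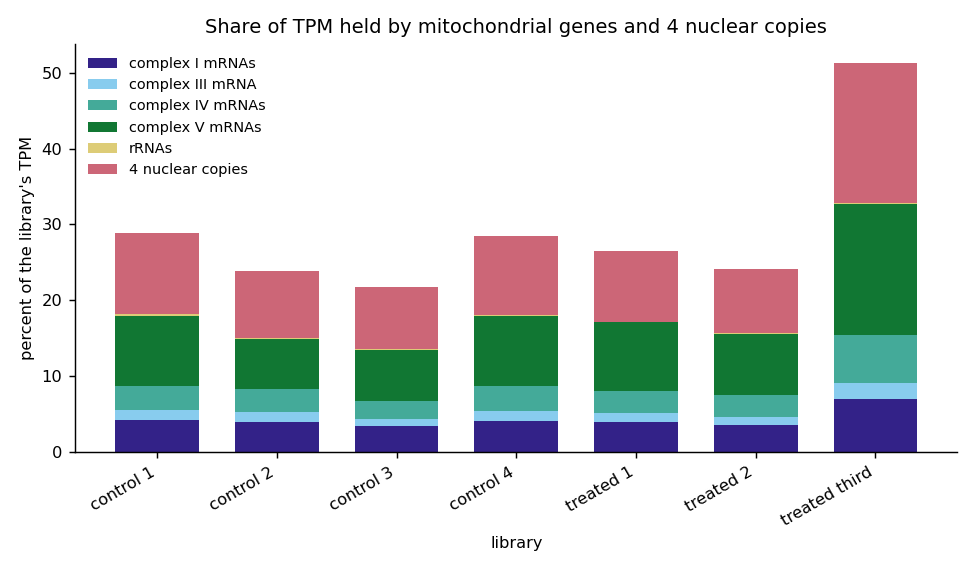
Percent of each library's TPM (y axis) held by the mitochondrial mRNAs of each respiratory complex, the rRNAs and the 4 nuclear copies, stacked, for each of 7 libraries (x axis). The third treated library reaches 51.2%, and the other 6 lie between 21.7% and 28.8%.

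Among the 20 symbols with the highest mean TPM over the 7 libraries, 14 were members. These include the 4 copies, which had been chosen for their high levels. mt-Atp8 ranked first, Gm28661, Gm28437 and mt-Co1 ranked 2, 3 and 4, and all 13 mRNAs were among the 100 highest. The 2 rRNAs ranked 148 and 222. As deposited, mt-Atp8 alone made up 46.8% ± 3.76 (SD, n = 4) of the TPM of the 13 mRNAs in controls, where mt-Co1 made up 16.8% ± 1.54. With each matching copy's TPM added to its gene, these were 28.8% ± 2.41 and 10.4% ± 0.919 (SD, n = 4) of the enlarged total. mt-Co2 and mt-Co3 then stood above mt-Co1 in controls, at 14.6% ± 0.525 and 11.5% ± 0.472. When each TPM as deposited, without the copies, was multiplied by the gene's GENCODE length, mt-Co1, at 1545 bases, made up 37.8% ± 1.60 (SD, n = 4). mt-Atp8, at 204 bases, made up 14.0% ± 1.74. The first place of mt-Atp8 thus holds for the scale per length and not for bases of RNA.

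The labelled cell type was checked against marker lists. The 12 T cell markers were all above 0 in some library, and summed to 132 to 229 TPM in controls against 1209, 2733 and 647 TPM in the treated libraries. Macrophage markers summed to 6228 to 15134 TPM in controls and 3417 to 4181 TPM in treated libraries. The macrophage sum exceeded the T cell sum in every library, so the markers did not show T cells alone. The lists hold different genes, so these sums do not give shares of cells. Epithelial and mesothelial markers summed to 2318 to 2784 and 872 to 1657 TPM, fibroblast markers to 282 to 322 and 115 to 227 TPM, and erythroid markers to 95.3 to 504 and 24.5 to 84.7 TPM. All 5 sums were without overlap between the groups, so the groups differed in these sums as well as in treatment. Of all genes tested singly, 30.5% did not overlap on this scale, 3845 of them lower in treated libraries and 722 higher. By limma (defined below), 12 of 12 T cell markers were called higher, beside 4.3% of all genes. Called lower were 3 of 12 macrophage, 8 of 10 tested epithelial and mesothelial, 4 of 5 tested fibroblast and 4 of 4 tested erythroid markers. Of all genes, 7.59% were called lower. Without the third treated library these lower calls were 0, 5, 1 and 0 in that order, where 4.1% of all genes were called lower. The T cell calls stayed at 12, where 722 of 14780 genes were called higher. When each library was scaled without the members, the lower calls were 1, 6, 2 and 2, where 10.2% of all genes were called lower. The part of the cell markers in any mitochondrial value was not tested. In bulk libraries such as these, fewer cells of a type and less RNA per cell cannot be told apart.

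The comparison asked how mitochondrial transcripts differ between cells with and without propionate and butyrate. It was made with limma on log2(TPM + 1) over all 14967 genes that passed the filter, with Benjamini-Hochberg adjustment over all of them and a threshold of 0.05. In that fit 11.9% of all genes were called, 4.30% higher and 7.59% lower. Of the 13 mitochondrial mRNAs, 0 were called, and 3 had an unadjusted p under 0.05. The share of all genes at that unadjusted p is not given, so such counts, here and for the lists below, lack a background. The median log2 difference of the 13 mRNAs was 0.35, with 11 above 0 and 2 below, against a median of -0.24 over all genes tested. Without the third treated library the median of the 13 was -0.01, with 6 above 0 and 7 below, against -0.08 over all genes, and 0 were called.

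The third treated library had the highest value of 12 of the 13 mRNAs and of all 4 copies. Its ratio to the control mean ran from 0.93 for mt-Nd6 to 3.78 for mt-Co3, with a median of 2.08 over the 13. For treated libraries 1 and 2 together the same ratio ran from 0.73 to 1.40, and for 7 mRNAs both of these libraries lay inside the control range.

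**Figure D2:**
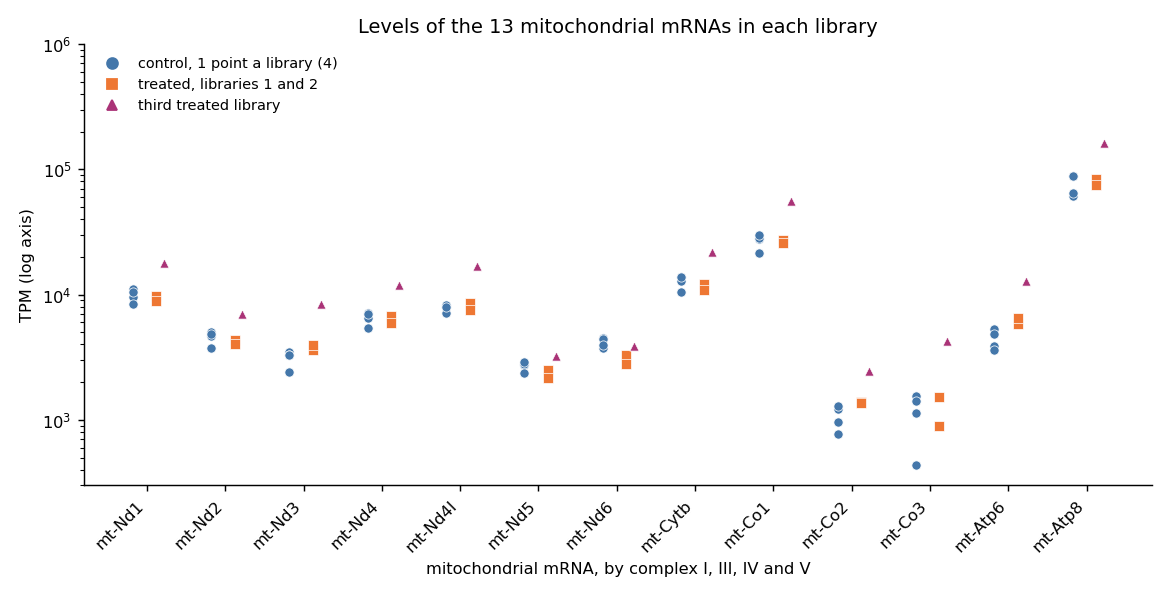
TPM (y axis, log scale) of the 13 mitochondrial mRNAs (x axis, ordered by respiratory complex), with 1 point for each library. The third treated library is the highest point for every mRNA except mt-Nd6, where controls 1, 2 and 4 lie above it.

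Complex I, the NADH dehydrogenase that passes electrons to ubiquinone, takes 7 of its subunits from this genome. mt-Nd1, a membrane subunit next to the quinone site, stood at 11108, 9646, 8394 and 10482 TPM in controls 1 to 4, at 9668 and 8812 TPM in treated libraries 1 and 2, and at 18011 TPM in the third. Treated libraries 1 and 2 were inside the control range and the third was above it. The log2 difference was 0.23 (limma, Benjamini-Hochberg adjusted p = 0.659). mt-Nd2, mt-Nd4 and mt-Nd5, antiporter-like subunits of the membrane arm, gave unlike values. For mt-Nd4 the controls were 7101, 6546, 5425 and 7035 TPM and the treated libraries 6778, 5945 and 11956 TPM, with a log2 difference of 0.27 (limma, Benjamini-Hochberg adjusted p = 0.568). mt-Nd2 was 3748 to 5006 TPM in controls and 4321, 4025 and 6968 TPM in treated libraries (log2 difference 0.12). mt-Nd5 was 2348 to 2920 TPM in controls and 2480, 2179 and 3211 TPM in treated libraries (log2 difference -0.06). Here the third treated library stood little above the highest control, unlike for mt-Nd4.

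mt-Nd4l, a small subunit read from the same mRNA as mt-Nd4, was 7188 to 8190 TPM in controls and 8509, 7574 and 16912 TPM in treated libraries. Its ratio to mt-Nd4 was 1.21 ± 0.0957 (SD, n = 4) in controls and 1.31 ± 0.0870 (SD, n = 3) in treated libraries, and the groups overlapped. mt-Nd3, a small subunit near the quinone site, was 3454, 3272, 2410 and 3311 TPM in controls and 3636, 3940 and 8449 TPM in treated libraries. These groups did not overlap, but the log2 difference of 0.68 (SE 0.32) did not pass the threshold (limma, Benjamini-Hochberg adjusted p = 0.159).

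mt-Nd6 departed from the other mRNAs. It stood at 4474, 4436, 3759 and 3957 TPM in controls 1 to 4, at 3270 and 2769 TPM in treated libraries 1 and 2, and at 3865 TPM in the third. Treated libraries 1 and 2 lay below every control, and the third, high for all the other mRNAs, lay inside the control range. The log2 difference was -0.34 (SE 0.25) and did not pass (limma, Benjamini-Hochberg adjusted p = 0.364).

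mt-Cytb encodes cytochrome b, the only subunit of complex III made in mitochondria. It was 13831, 12896, 10500 and 13755 TPM in controls, 12174 and 10858 TPM in treated libraries 1 and 2, and 21866 TPM in the third. The log2 difference was 0.17 (limma, Benjamini-Hochberg adjusted p = 0.756), and only the third treated library lay outside the control range.

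Complex IV, cytochrome c oxidase, takes its 3 core subunits from this genome. mt-Co1, the catalytic subunit, was 27983, 28197, 21462 and 30030 TPM in controls and 27234, 25935 and 55984 TPM in treated libraries, a log2 difference of 0.35 (limma, Benjamini-Hochberg adjusted p = 0.554). mt-Co2, the subunit that receives electrons from cytochrome c, was far lower as deposited, at 970, 1221, 770 and 1284 TPM in controls and 1379, 1373 and 2436 TPM in treated libraries. All treated values lay above all controls, and the log2 difference was 0.68 (SE 0.27; limma, Benjamini-Hochberg adjusted p = 0.112). Its copy Gm28661 held 97.2% ± 0.466 (SD, n = 4) of the TPM of the pair in controls. Gene and copy summed to 37975 ± 4803 TPM there, above mt-Co1 at 26918 ± 3752 TPM. The low level of mt-Co2 therefore depends on how reads were divided. mt-Co3, the third core subunit, had the widest spread, with 1547, 1411, 436 and 1130 TPM in controls and 898, 1514 and 4276 TPM in treated libraries. Its log2 difference of 0.82 (SE 0.48) did not pass the threshold (limma, Benjamini-Hochberg adjusted p = 0.259). The copy Gm28437 held 96.3% ± 1.43 (SD, n = 4) of that pair in controls, so the spread of mt-Co3 is that of a small remainder.

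Of complex V, mt-Atp6 encodes the membrane subunit of the proton channel. It was 5336, 3886, 3581 and 4830 TPM in controls and 5818, 6491 and 12782 TPM in treated libraries. The groups did not overlap, and the log2 difference of 0.85 (SE 0.32) carried the lowest adjusted p of the 13 mRNAs (limma, Benjamini-Hochberg adjusted p = 0.0936). mt-Atp8, a small membrane subunit of the same enzyme, was 87865, 61022, 64671 and 87634 TPM in controls and 84377, 74559 and 160727 TPM in treated libraries. Here treated libraries 1 and 2 lay inside the control range, and the log2 difference was 0.43 (limma, Benjamini-Hochberg adjusted p = 0.529).

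The 3 mRNAs whose groups did not overlap on the TPM scale, mt-Nd3, mt-Co2 and mt-Atp6, all have a matching copy among the members. Over all genes tested, 30.5% did not overlap on that scale. Those copies did overlap between the groups. Gm28661, the copy of mt-Co2, was 40569, 36002, 30702 and 40384 TPM in controls and 35079, 32250 and 71203 TPM in treated libraries. Gm10925, the copy of mt-Atp6, was 22124, 14796, 16395 and 19164 TPM in controls and 17100, 13863 and 30368 TPM in treated libraries. Gm28438, the copy of mt-Nd3, was 12343, 10737, 10094 and 13376 TPM in controls and 11503, 10254 and 20390 TPM in treated libraries. Gm28437, the copy of mt-Co3, was 30852, 28126, 24316 and 32094 TPM in controls and 30514, 28095 and 61873 TPM in treated libraries. In each of these only the third treated library exceeded the controls.

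In every library each of the 4 member copies was assigned more TPM than the mitochondrial gene whose sequence it shares. These copies were chosen for their high levels, so that order partly follows from the choice. Gm10222, a copy of mt-Nd4l in the same segment but outside the members, held less than its gene in every library. Gm28661 held 97.7%, 96.7%, 97.5% and 96.9% of the pair's TPM in controls 1 to 4 and 96.2%, 95.9% and 96.7% in treated libraries. Gm28437 held 95.2% to 98.2% in controls and 93.5% to 97.1% in treated libraries, with overlap. Gm10925 held 80.6%, 79.2%, 82.1% and 79.9% in controls and 74.6%, 68.1% and 70.4% in treated libraries. Gm28438 held 78.1%, 76.6%, 80.7% and 80.2% in controls and 76.0%, 72.2% and 70.7% in treated libraries. For the pairs of mt-Co2, mt-Atp6 and mt-Nd3 the copy's share was lower in every treated library than in every control, treated libraries 1 and 2 included.

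**Figure D3:**
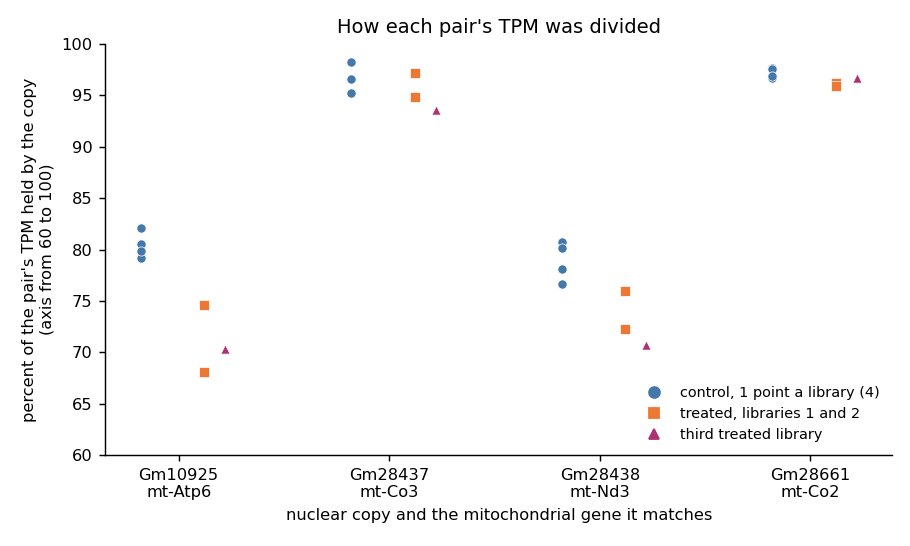
Percent of a pair's TPM assigned to the nuclear copy (y axis, drawn from 60 to 100) for 4 copies and the mitochondrial genes they match (x axis), 1 point for each library. All treated points lie below all control points for Gm10925, Gm28438 and Gm28661, and the groups overlap for Gm28437.

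When each copy's TPM was added to its gene, a setting chosen after seeing the data, the differences in mt-Atp6, mt-Nd3 and mt-Co2 became smaller. The pair of mt-Atp6 and Gm10925 summed to 27460, 18681, 19976 and 23994 TPM in controls and 22918, 20355 and 43149 TPM in treated libraries, a log2 difference of 0.29 against 0.85 for mt-Atp6 alone. The pair of mt-Nd3 and Gm28438 had a log2 difference of 0.33 against 0.68, that of mt-Co2 and Gm28661 0.25 against 0.68, and that of mt-Co3 and Gm28437 0.41 against 0.82. For these 4 sums treated libraries 1 and 2 lay inside the control range, and their limma Benjamini-Hochberg adjusted p values, given as values only because the copies were chosen on these libraries, were 0.616, 0.534, 0.691 and 0.491. The higher values of mt-Nd3, mt-Co2 and mt-Atp6 in treated libraries 1 and 2 were not seen once gene and copy were added together. Over all libraries the copy held 70.7% to 80.7%, 95.9% to 97.7% and 68.1% to 82.1% of these sums in that order. Each sum therefore largely follows its copy, and cannot tell whether the gene's own level differed. Summed over all 4 copies, the ratio of copies to the 13 mRNAs was 0.597 ± 0.00995 (SD, n = 4) in controls and 0.552 ± 0.00997 (SD, n = 3) in treated libraries, without overlap.

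The division also entered comparisons between genes. mt-Atp8 was 17.1 ± 1.20 (SD, n = 4) times mt-Atp6 in controls and 12.9 ± 1.53 (SD, n = 3) times in treated libraries, although both lie on one mRNA. With Gm10925 added to mt-Atp6 the ratio was 3.34 ± 0.211 (SD, n = 4) and 3.69 ± 0.0318 (SD, n = 3), so the order of the groups turned.

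Because the third treated library sets the size of the whole, each mRNA was also expressed as a percent of the 13 mRNAs of its own library, which that size does not move. No test was made on these percents. mt-Nd6 made up 2.49%, 2.99%, 2.79% and 2.21% in controls and 1.92%, 1.78% and 1.18% in treated libraries, and every treated library lay below every control. The treated mean was 0.62 times the control mean, and 0.70 times without the third treated library. mt-Nd5, its neighbour on the other strand, was also without overlap, at 1.70% ± 0.159 (SD, n = 4) and 1.28% ± 0.259 (SD, n = 3). mt-Nd1, mt-Nd2 and mt-Cytb were lower in all treated libraries too, at 0.91, 0.84 and 0.87 times the control mean. As deposited, mt-Atp6 was the only one of the 13 that was higher without overlap, at 2.74% ± 0.161 (SD, n = 4) and 3.83% ± 0.381 (SD, n = 3), and its value depends on the division with Gm10925 described above. So 6 of the 13 did not overlap between groups as deposited. Of all genes tested, expressed relative to the 13 mRNAs in the same way, 22.3% did not overlap. With each copy added to its gene, mt-Atp6 overlapped, at 0.97 times the control mean, mt-Atp8 was higher without overlap at 1.07 times and mt-Co2 lower without overlap at 0.94 times. The other 5, mt-Nd1, mt-Nd2, mt-Nd5, mt-Nd6 and mt-Cytb, were again lower without overlap, mt-Nd6 at 0.64 times the control mean.

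**Figure D4:**
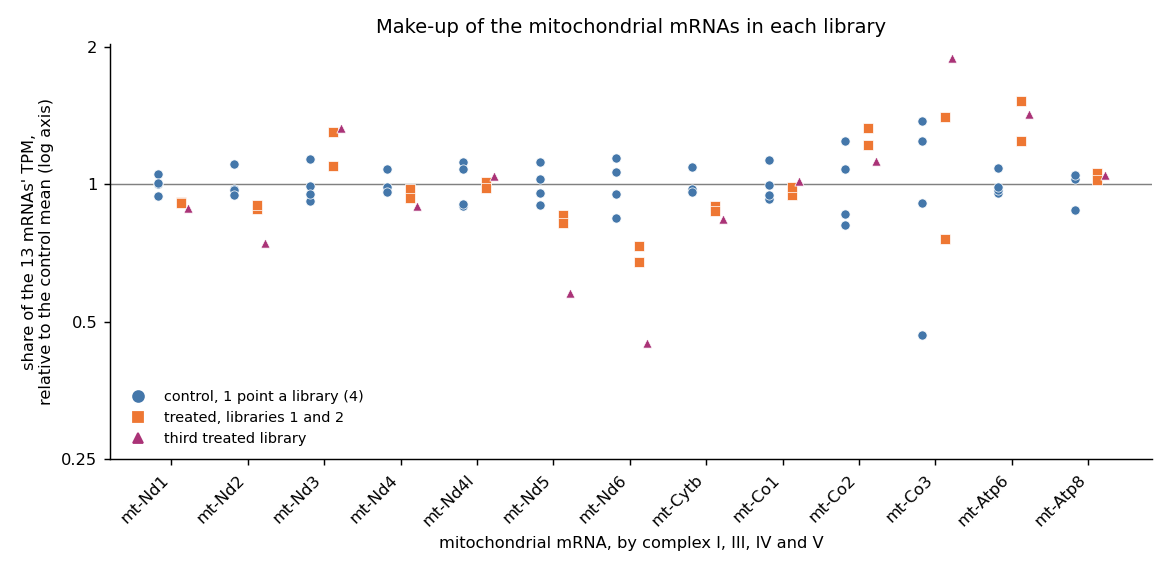
Share of the summed TPM of the 13 mRNAs held by each mRNA, divided by its control mean (y axis, log scale, 1 marks the control mean), ordered by complex (x axis), 1 point for each library. For mt-Nd6 the treated libraries lie below all 4 controls and the third treated library is lowest, and mt-Co3 shows the widest spread among controls.

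The ratio of mt-Nd6 to mt-Cytb, the next mRNA gene along the genome, was 0.324, 0.344, 0.358 and 0.288 in controls and 0.269, 0.255 and 0.177 in treated libraries. The ratio of mt-Nd6 to mt-Nd5 was 1.36 to 1.63 in controls and 1.20 to 1.32 in treated libraries. Neither ratio overlapped between the groups, and neither involves a gene with a matching copy in the segment. mt-Co1 over mt-Cytb, both on the plus strand, also did not overlap, at 2.11 ± 0.0877 (SD, n = 4) and 2.40 ± 0.162 (SD, n = 3). When the genes were refitted after scaling each library to its 13 mRNAs, the log2 difference of mt-Nd6 was -0.71 (SE 0.42; limma, Benjamini-Hochberg adjusted p = 0.384), and 0 of the 13 were called, with 0 at an unadjusted p under 0.05. In that scaling all other genes carry the size of the mitochondrial share, and the median over all genes moved to -0.55.

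The 2 rRNAs of the mitochondrial ribosome did not follow the mRNAs. mt-Rnr1, the small-subunit rRNA, was 1654, 837, 641 and 551 TPM in controls and 482, 553 and 803 TPM in treated libraries. mt-Rnr2, the large-subunit rRNA, was 1234, 378, 390 and 294 TPM in controls and 275, 356 and 442 TPM in treated libraries. Control 1 was the highest library for both, and the third treated library, at 1.99 times the control mean for all members together, was inside the control range for both. The log2 differences were -0.48 and -0.45 (limma, Benjamini-Hochberg adjusted p = 0.329 and 0.432), and 0 of the 2 were called or had an unadjusted p under 0.05. Without control 1 the log2 differences were -0.15 and 0.00, so both values rest on that library. Together they amounted to 1.61%, 0.820%, 0.765% and 0.472% of the mRNAs in controls and 0.444%, 0.583% and 0.380% in treated libraries. Rn18s-rs5, a sequence related to cytosolic 18S rRNA and named here after its values were seen, was 5845, 2834, 2267 and 1107 TPM in controls and 1211, 1787 and 1119 TPM in treated libraries, so control 1 was highest there too.

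Beside the 4 members, the segment on chromosome 1 holds 3 more annotated pseudogenes, named here after their values were seen. Gm10222, which equals mt-Nd4l at 294 of 294 bases, was 2912 to 5659 TPM in controls and 5554, 4640 and 8143 TPM in treated libraries, and held 28.8% to 41.3% of its pair. Gm28439, which equals the first 876 bases of mt-Nd4, was listed at 0 in every library. Gm29216 matches the last part of mt-Co1 at 486 of 492 bases, and was 235, 1651, 734 and 239 TPM in controls and 2855, 3220 and 10260 TPM in treated libraries. All its differences lie between bases 1056 and 1066 of mt-Co1, and its longest run of equal bases is 479. The division of reads between Gm29216 and mt-Co1 is therefore uncertain too. As a percent of mt-Co1, Gm29216 was 0.839%, 5.86%, 3.42% and 0.794% in controls and 10.5%, 12.4% and 18.3% in treated libraries. All treated libraries lay above all controls, and its log2 difference was 3.15 with an SE of 0.59 (limma, Benjamini-Hochberg adjusted p = 0.00368). The adjusted p values of Gm29216 are given as values only, because it was named after its values were seen. Without the third treated library its log2 difference was 2.57 (limma, Benjamini-Hochberg adjusted p = 0.0780), above the threshold of 0.05. Its adjusted p was also above 0.05 with robust variance (0.0881), with the replicate block (0.0548) and without the filter (0.103).

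**Figure D5:**
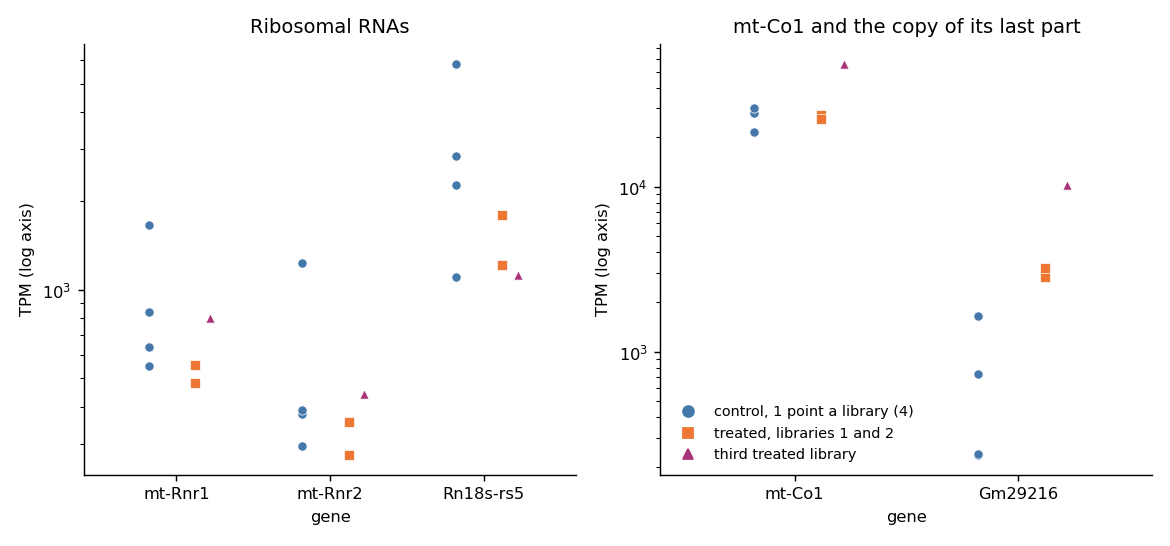
TPM (y axes, log scale) of the 2 mitochondrial rRNAs and Rn18s-rs5 on the left, and of mt-Co1 and Gm29216 on the right (x axes), 1 point for each library. Control 1 is the highest point for all 3 rRNA genes on the left, and for Gm29216 all treated points, from 2855 to 10260 TPM, lie above all controls.

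Nuclear genes supply the remaining subunits of the same complexes and the machinery that copies and transcribes mitochondrial DNA. Of 77 nuclear oxidative phosphorylation subunits tested, 0 were called higher and 2 lower, beside 7.59% of all genes called lower, and 31 had an unadjusted p under 0.05. Their median log2 difference was -0.41 with all 77 below 0, against -0.24 over all genes. Without the third treated library the median was -0.22 with 72 below 0, against -0.08 over all genes. In that fit 3 were called lower, where 4.1% of all genes were called lower. When each library was scaled without the members, 74 of the 77 were below 0, the median was -0.22, the median over all genes -0.07, and 12 were called lower, where 10.2% of all genes were called lower. The summed level of the 77 was 20964 ± 1660 TPM (SD, n = 4) in controls and 15866 ± 3382 TPM (SD, n = 3) in treated libraries, lowest in the third at 0.57 times the control mean. With the members left out of the total, that ratio was 0.87.

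By complex, the medians of the nuclear subunits were -0.44 for complex I, -0.36 for complex II, -0.49 for complex III, -0.44 for complex IV and -0.31 for complex V. Complex II, succinate dehydrogenase, has no mitochondrially encoded subunit. Ndufc2, an accessory subunit of complex I, fell. Controls averaged 309 ± 29.1 TPM (SD, n = 4) and treated libraries 174 ± 35.1 TPM (SD, n = 3), and the log2 difference was -0.84 (SE 0.20; limma, Benjamini-Hochberg adjusted p = 0.0157). Without control 2 its adjusted p was 0.0533. Sdhc, a membrane anchor of complex II, fell. Controls averaged 128 ± 19.1 TPM (SD, n = 4) and treated libraries 77.4 ± 12.5 TPM (SD, n = 3), and the log2 difference was -0.72 (limma, Benjamini-Hochberg adjusted p = 0.0315). Without each of the controls in turn its adjusted p was 0.0520 to 0.111. Ndufc1, another accessory subunit of complex I, had a log2 difference of -0.64 (limma, Benjamini-Hochberg adjusted p = 0.0548).

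The ratio of the 13 mitochondrial mRNAs to these 77 subunits was 9.16, 6.38, 6.35 and 9.03 in controls and 9.30, 9.04 and 27.3 in treated libraries. Only the third treated library lay far from the others, and treated library 2 lay inside the control range.

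Of 35 genes for transcription, processing, stability and copying of mitochondrial DNA, 0 were called higher and 2 lower, where 7.59% of all genes were called lower, and 6 had an unadjusted p under 0.05. Their median was -0.28, with 3 above 0 and 32 below, -0.11 when scaled without the members and -0.06 without the third treated library. Hsd17b10, a subunit of the enzyme that cuts the 5′ ends of mitochondrial tRNAs, fell. Controls averaged 132 ± 13.4 TPM (SD, n = 4) and treated libraries 82.8 ± 15.9 TPM (SD, n = 3), and the log2 difference was -0.68 (limma, Benjamini-Hochberg adjusted p = 0.0377). Slirp, which with Lrpprc stabilises mitochondrial mRNAs, fell. Controls averaged 29.3 ± 4.47 TPM (SD, n = 4) and treated libraries 17.9 ± 3.13 TPM (SD, n = 3), and the log2 difference was -0.69 (limma, Benjamini-Hochberg adjusted p = 0.0422). The call of Hsd17b10 ended without any one of the controls or treated library 2, at adjusted p values of up to 0.120. That of Slirp ended without any one library except treated library 1, at up to 0.150, and when scaled without the members, at 0.0665.

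Mgme1, a nuclease that trims mitochondrial DNA, had a log2 difference of -0.59 (limma, Benjamini-Hochberg adjusted p = 0.0947). Of genes outside the naming rule, Polrmt, the mitochondrial RNA polymerase, was at 15.2 ± 2.27 TPM (SD, n = 4) and 11.7 ± 2.25 TPM (SD, n = 3), Tfam, which packages mitochondrial DNA, at 40.2 ± 6.59 and 43.0 ± 7.33 TPM, and Lrpprc at 16.3 ± 0.534 and 14.8 ± 3.87 TPM. Their limma adjusted p values (Benjamini-Hochberg) were 0.262, 0.778 and 0.634, and 0 of these 3 passed.

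Among genes of mitochondrial import, outer membrane, carriers and biogenesis, 25 of 26 were found in the table and tested, and 0 were called in either direction, with 5 at an unadjusted p under 0.05. Their median was -0.30, and -0.09 without the third treated library. Vdac1, the outer membrane channel, was 287 ± 13.5 TPM (SD, n = 4) in controls and 188 ± 42.5 TPM (SD, n = 3) in treated libraries (limma, Benjamini-Hochberg adjusted p = 0.0552). Esrra, a nuclear receptor for energy metabolism genes, and Tomm22, an import receptor, had log2 differences of -0.60 and -0.56 (limma, Benjamini-Hochberg adjusted p = 0.0594 and 0.0889).

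Over the 7 libraries the pattern of each gene was set beside the summed TPM of the 13 mRNAs by Pearson's r, as a description across libraries that share their scaling and of which 1 stands apart. Among the members r was 0.986 for mt-Nd4 and 0.994 for Gm28437, but 0.727 for mt-Nd5, 0.117 for mt-Nd6, 0.177 for mt-Rnr1 and 0.134 for mt-Rnr2. Of 14821 other symbols, the 10 with the highest r included Gm10222 (0.894), the copy of mt-Nd4l. Of those 10, 7 (Gm37282, Gm44268, Gm44379, Gm44389, Gm46562, Snora74a and Rpl15-ps3) were listed at 0 in every library but the third treated one, so their r of 0.932 rests on that library.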

How the data were processed

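RNA of 7 libraries (4 control, 3 treated) had been poly(A)-selected and made into stranded libraries, per the labels' protocols. The authors deposited TPM values for 149132 transcript rows. The submitters' processing notes name fastp, HISAT2, StringTie and mm39, and versions and roles are not given in the sources used here. Libraries summed to the same total, so depth is unknown and libraries could not be weighted by it.

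Columns were matched to samples by name, and 1 treated column matched only its group. Of further value columns there were 0. Transcripts of a symbol were added up, leaving out the 1001 that had no symbol (between 0.307% and 0.618% of TPM). Genes at TPM of at least 1 in at least 3 libraries were fitted with limma 3.58.1 in R 4.3.3 on log2(TPM + 1), with an intensity trend and a pseudocount of 1, after a test on simulated data. Since log2 differences include the pseudocount, they understate changes of low genes. Sequences and lengths came from GENCODE M21 on GRCm38.

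Members and gene lists were chosen with earlier results of these data known. Named were all mRNAs, rRNAs and copies, the 3 genes of each nuclear list with the smallest p, any called against the list's median, and the 10 other symbols most like the mRNAs by Pearson's r. The 5 highest tRNAs were to be named, but all were at 0. Alternatives were other pseudocounts, filters, scalings and variance settings, the replicate block and leaving out each library. Adding copies to their genes was chosen after seeing the data.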

Additional observations from a re-analysis of the deposited data

Results flagged for a closer look

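A control library was called far from the others where its gap to the nearest, divided by the range of the 4 controls, passed Dixon's 95% critical value for 4 samples. Of 56 groups of controls looked at, 5 did so, and chance gives about 1 in 20. The level of mt-Rnr2 was 1234 TPM in control 1 against 390 TPM in the next control. The share of the 13 mRNAs held by mt-Nd2 was 3.17% in control 2 against 2.79% in the next, that of mt-Cytb 8.70% against 7.79%, and that of mt-Atp8 was lowest there, at 41.2% against 48.0%. These 3 shares come from 1 library and add up to a fixed total, so they are not separate observations. The ratio of mt-Atp8 to mt-Atp6 with its copy was 3.65 in control 4 against 3.27 in the next control, and the treated libraries lay at 3.66 to 3.73.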

How the results depend on the processing

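Depth is unknown, so the precision of low genes cannot be given, and 4 against 3 libraries limit every test. Over all genes 643 were higher and 1136 lower, and 1306 and 955 with median-of-ratios scaling, 336 and 226 with scaling to the 13 mRNAs, and the median of all genes was -0.24, 0 and -0.55 in these 3 scalings. Without a filter 3 and 4 were called. Of the 13 mRNAs, 1 was called higher with robust variance (mt-Atp6) and 1 lower with array weights (mt-Nd6), and 0 under the other settings run. Genes called lower for mitochondrial DNA expression were 9 with array weights, 1 with median-of-ratios scaling, 0 without a filter, 0 without the trend, and 0 to 4 when 1 library was left out, with 4 without treated library 1. Nuclear subunits called lower were 30 with array weights, 1 with median-of-ratios scaling, 0 without a filter, 6 with robust variance, 12 with scaling without members and 0 to 24 when 1 library was left out, with 24 without treated library 1 and 0 without control 2. Mitochondrial mass genes called lower were 5 with array weights, 2 with median-of-ratios scaling, 4 with scaling without members and 0 to 5 when 1 library was left out. Over all genes, 28.2% were called lower with array weights, 19.8% without treated library 1, 10.2% with scaling without members, 9.8% with robust variance and 6.4% with median-of-ratios scaling. The cause was not tested.

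Leaving out 1 library, the ratio of treated to control shares of mitochondrially encoded genes ran from 1.01 (without the third treated library) to 1.54. Log2 differences that changed sign, none of them called, ran from -0.09 to 0.42 for mt-Nd1, -0.13 to 0.27 for mt-Nd2, -0.03 to 0.47 for mt-Nd4, -0.21 to 0.07 for mt-Nd5, -0.14 to 0.36 for mt-Cytb, -0.01 to 0.55 for mt-Co1, -0.01 to 0.23 for Tfam and -0.32 to 0.04 for Lrpprc. With array weights mt-Nd1, mt-Nd2, mt-Nd4, mt-Cytb, mt-Co1 and mt-Atp8 were -0.17, -0.18, -0.12, -0.22, -0.03 and -0.06. Scaled to the 13 mRNAs, mt-Nd1, mt-Nd2, mt-Nd4, mt-Cytb and mt-Co1 were -0.14, -0.25, -0.10, -0.20 and -0.02. With median-of-ratios scaling mt-Nd5 was 0.22 and Lrpprc 0.10, and with scaling without members 0.14 and 0.03.

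Libraries of both groups numbered 1 and 2 did not deviate together (correlations of -0.019 and -0.090). These values show no pairing by number, but cannot tell whether such libraries share more than a number. With the replicate block, which uses the 2 numbered treated libraries and the controls of the same number, 574 genes were higher and 138 lower, 0 genes of mitochondrial DNA expression and 0 nuclear subunits were called, and mt-Nd1, mt-Nd2, mt-Nd4, mt-Nd4l, mt-Cytb, mt-Co1, mt-Co3 and Lrpprc were -0.17, -0.22, -0.10, -0.01, -0.22, -0.08, -0.34 and 0.08. Of 587 values under all alternatives, 481 kept their direction and side of the threshold or moved by less than the replicate spread.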

Other observations

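Apart from Gm10222, the 10 symbols outside the members that followed the mRNAs most closely were at low levels. Rpl15-ps3, a ribosomal protein pseudogene, was at 64.5 TPM in the third treated library and listed at 0 in the other 6, and Snora74a, a small nucleolar RNA, at 7.81 TPM there. Erhrt-ps was at 14.1 TPM in the third treated library and at 0 to 0.70 TPM elsewhere. A930002I21Rik was at 0.09 to 0.26 TPM in controls, at 1.17 and 1.52 TPM in treated libraries 1 and 2 and at 6.47 TPM in the third.

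Markers of immediate early and heat shock response, which can move with the handling of cells, summed to 486 to 1386 TPM in controls and 684 to 1096 TPM in treated libraries, and 0 of 10 were called by limma, with 1 at an unadjusted p under 0.05. RNAs kept in the nucleus, Malat1 among them, summed to 1855 to 3599 TPM in controls and 1321 to 2034 TPM in treated libraries, lowest in the third treated library. By limma 1 of the 3 tested was called lower, where 7.59% of all genes were. Without the third treated library 0 were called lower, and likewise 0 when each library was scaled without the members.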
